A study of Mus musculus with 9 samples.

Results

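The liver makes most of the complement and clotting proteins of the blood, and 42 of their genes were examined in mice on 2 diets. They were taken by name from a list of complement, coagulation and fibrinolysis genes made in the liver, and all 42 were found among the 19329 gene symbols measured and passed the filter on low counts. The livers came from 9 mice of the inbred strain C57BL/6J. Chow (n = 5) denotes animals kept on a standard mouse chow, and HSD (n = 4) animals moved from that chow to a high-sucrose diet at 8 weeks of age and kept on it for 3 weeks. All were taken at 11 weeks, each library is 1 animal, and no source used here gives the animals' sex. The study used the HSD mice as a diet model of fatty liver, with no transgene or deletion in either group, and asked how the liver transcriptome differed between the diets.

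Complement is a chain of plasma proteins that marks and punctures microbes. The classical and lectin pathways start from C1 or from mannose-binding lectins and cut C4 and C2, the 3 pathways meet at C3, and C5 to C9 then assemble into the membrane attack complex. Coagulation runs through serine proteases that end in thrombin and a fibrin clot, natural anticoagulants restrain it, and plasmin dissolves the clot. Hepatocytes secrete nearly all of these proteins, and many of the genes, C3 and the fibrinogen chains among them, belong to the acute phase response that interleukin 6 drives.

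The libraries held 12769668 to 25913869 estimated read counts, and 12091 genes were tested. The Chow 1 library stood apart. The summed level of 25 acute phase genes outside the 42 reached 84150 CPM (counts scaled to library size, with TMM factors that even out library composition) in Chow 1, while Chow 2 to 5 lay at 11043 to 17490 and HSD at 9958 to 11279. Saa2, serum amyloid A2, read 10112 CPM in Chow 1 against 4.45 to 39.5 in the other Chow livers, Hp, haptoglobin, 19791 against 1836 to 3750, and Lcn2, lipocalin 2, 1081 against 1.72 to 5.49. The members are therefore described with all livers and without Chow 1. The 8 hepatocyte markers were present in every liver, summing to 69643 CPM in Chow 1, 94896 to 135858 in Chow 2 to 5 and 102475 to 132270 in HSD. The 8 Kupffer cell and macrophage markers summed to 356 CPM in Chow 1, 153 to 264 in Chow 2 to 5 and 97.5 to 199 in HSD. The 5 red blood cell markers summed to 182 to 459 and 115 to 157 CPM, with no overlap. In TPM, values scaled by transcript length, they overlapped at 231 to 1040 and 217 to 384. The 8 stellate cell markers summed to 192 to 249 and 239.7 to 309 CPM. The 6 cholangiocyte markers summed to 73.5 CPM in Chow 1, 30.0 to 48.1 in Chow 2 to 5 and 44.5 to 68.8 in HSD. The part of these cell types in the members' values was not tested. Of the markers of these and the other cell types listed, only Mpo, a neutrophil marker, was at 0 in all livers. The filter on low counts kept 1 of 6 neutrophil, 1 of 6 lymphocyte and 2 of 6 platelet and megakaryocyte markers. The neutrophil markers summed to 6.73 CPM in Chow 1, 1.25 to 1.92 in Chow 2 to 5 and 0.634 to 1.32 in HSD. The library numbers in the labels form 2 series, Chow 1 to 4 with HSD 1 and 2, and Chow 5 with HSD 3 and 4. In whole tissue, fewer cells of a type and less RNA per cell cannot be told apart.

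On HSD, 9 of the 42 genes were lower and none was higher (edgeR quasi-likelihood test, Benjamini-Hochberg adjusted p under 0.05 over all genes tested). Of all genes tested, 3.23% were called lower and 3.44% higher, against 21.4% and 0% of the 42. The 42 were chosen with earlier results of these data known. They were not matched to all genes for transcript level, so the shares describe the list and do not test it. The 9 were C2 and Masp2 of the initiating pathways, C8a, C8b, C8g and C9 of the terminal pathway, the clotting factor gene F11, the anticoagulant gene Proc and the plasmin inhibitor gene Serpinf2. Their log2 fold changes (HSD minus Chow) ran from -0.90 for C8b to -0.33 for Masp2. Without Chow 1 these 9 remained lower, Cpb2 and Hrg joined them, and none was higher, so that 11 of 42 (26.2%) were lower, against 4.11% of all genes lower and 3.96% higher. At an unadjusted p under 0.05, 18 members were lower and 1, Mbl2, was higher, where 11.6% and 12.1% of all genes were. Without Chow 1 these were 17 lower and 2 higher, beside 12.0% and 11.8% of all genes. DESeq2 called 12 members lower and 0 higher, against 5.83% and 5.46% of all genes. The label series are uneven over the diets, and with the series as a covariate 3 of the 9, C2, C8b and F11, were called, where 2.17% of all genes were lower and 2.40% higher. The other 6 then had adjusted p from 0.0574 (Proc) to 0.103 (C8a), and without Chow 1 Proc passed as well.

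The log2 fold change was below 0 for 39 of 42 members, and for 36 without Chow 1, where 50.4% of all genes were below 0 in either case. The median over the members was -0.29, or -0.19 without Chow 1, against -0.00 for all genes in both. The HSD livers all lay below all Chow livers for 16 members and above them for none in CPM, where 5.51% and 5.84% of all genes were apart in those directions. The TPM table, whose values are scaled by transcript length, gave another picture. There the median of all genes shifted by 0.14 on the log2 scale towards HSD, 10.6% of the same genes were apart and higher on HSD and 1.60% apart and lower. On that scale 6 members were apart and lower (Masp2, C2, C8b, C8g, Serpinf2 and Hrg) and 2 apart and higher (F5 and F12). By limma on log2(TPM + 1), C2 and C8b were called lower and Mbl2 higher. Masp2 (-0.18, adjusted p = 0.171), C8g (-0.16, 0.219), Proc (-0.22, 0.147), Serpinf2 (-0.33, 0.0744) and Hrg (-0.22, 0.145) did not pass that test. After each liver was centred on its median, Masp2 (0.0332), C8g (0.0451) and Proc (0.0248) passed it, and Serpinf2 (0.0518) and Hrg (0.0617) did not.

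**Figure D1:**
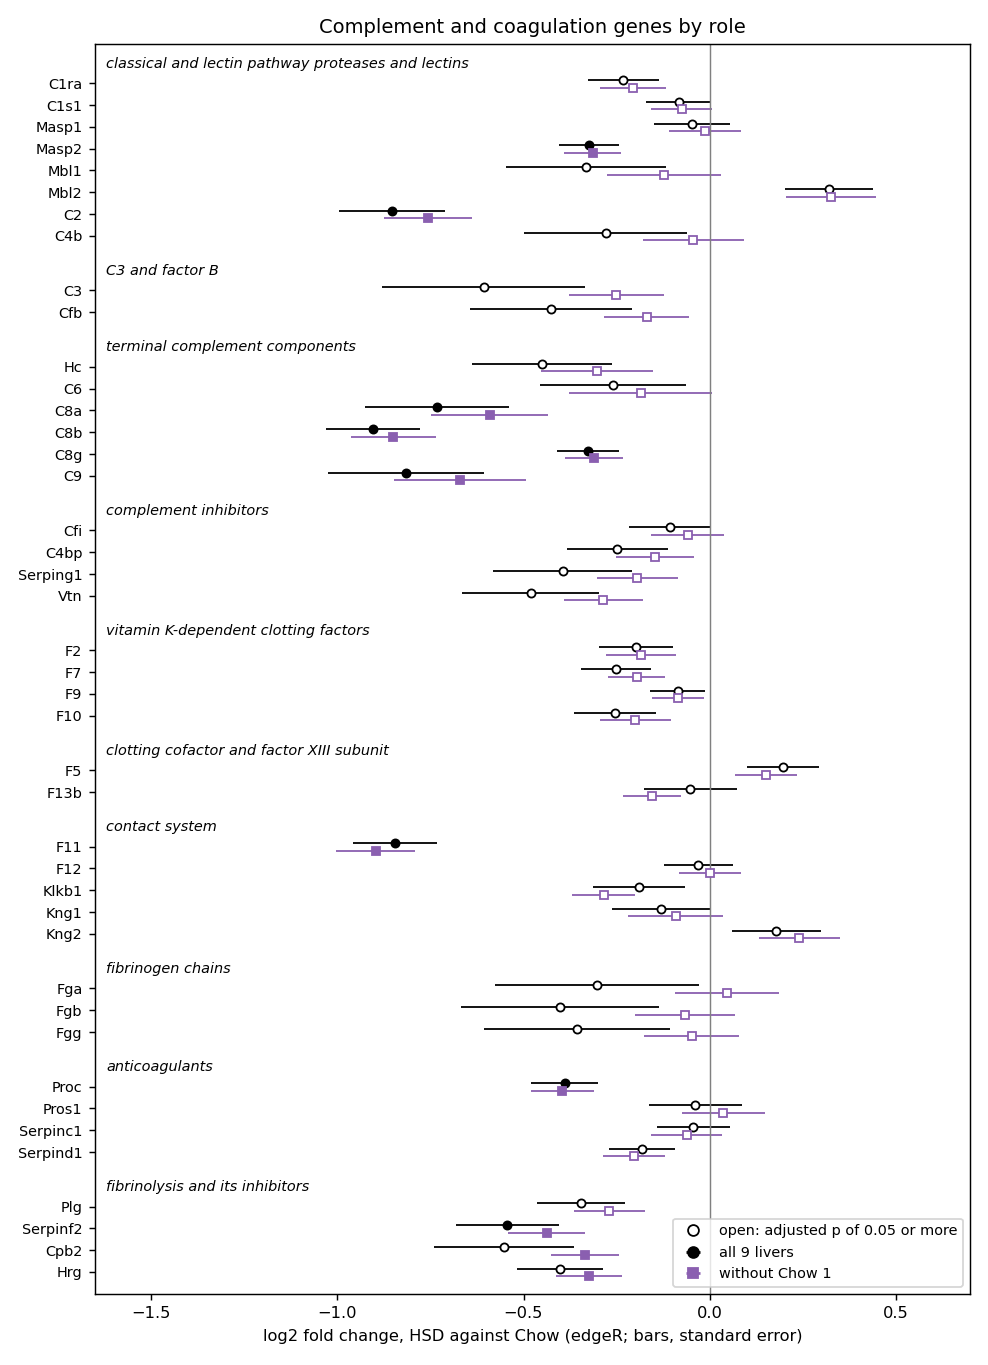
Log2 fold change of each of the 42 genes, HSD against Chow, with bars of 1 standard error (edgeR), grouped by role. Circles are all 9 livers and squares the fit without Chow 1, and filled symbols have an adjusted p under 0.05. The 9 filled circles all lie left of 0, with C8b at -0.90, C2 at -0.85 and F11 at -0.84, while the 3 fibrinogen chains move from between -0.40 and -0.30 to between -0.07 and 0.05 when Chow 1 is left out.

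The genes spanned a wide range of transcript levels, which can be compared between genes only per transcript length. By mean TPM over the 9 livers, the fibrinogen alpha chain Fga stood highest at 4028, followed by Fgg at 3684, antithrombin Serpinc1 at 3024, vitronectin Vtn at 2185 and C3 at 2130.2. The lowest were protein S, Pros1, at 22.7, Masp1 at 48.2, F11 at 57.0 and F7 at 66.4. Together the 42 genes took 2.84% to 3.46% of the TPM of all listed symbols in Chow 2 to 5, 3.01% to 3.23% in HSD and 4.58% in Chow 1. Their share of the transcripts therefore overlapped between the diets. Within it, the 6 terminal complement genes took 0.178% to 0.251% in Chow and 0.137% to 0.165% in HSD, and the 4 fibrinolysis genes 0.322% to 0.402% and 0.286% to 0.313%, with no overlap in either. The 3 fibrinogen chains took 1.76% in Chow 1, 0.747% to 1.04% in Chow 2 to 5 and 0.915% to 1.05% in HSD.

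**Figure D2:**
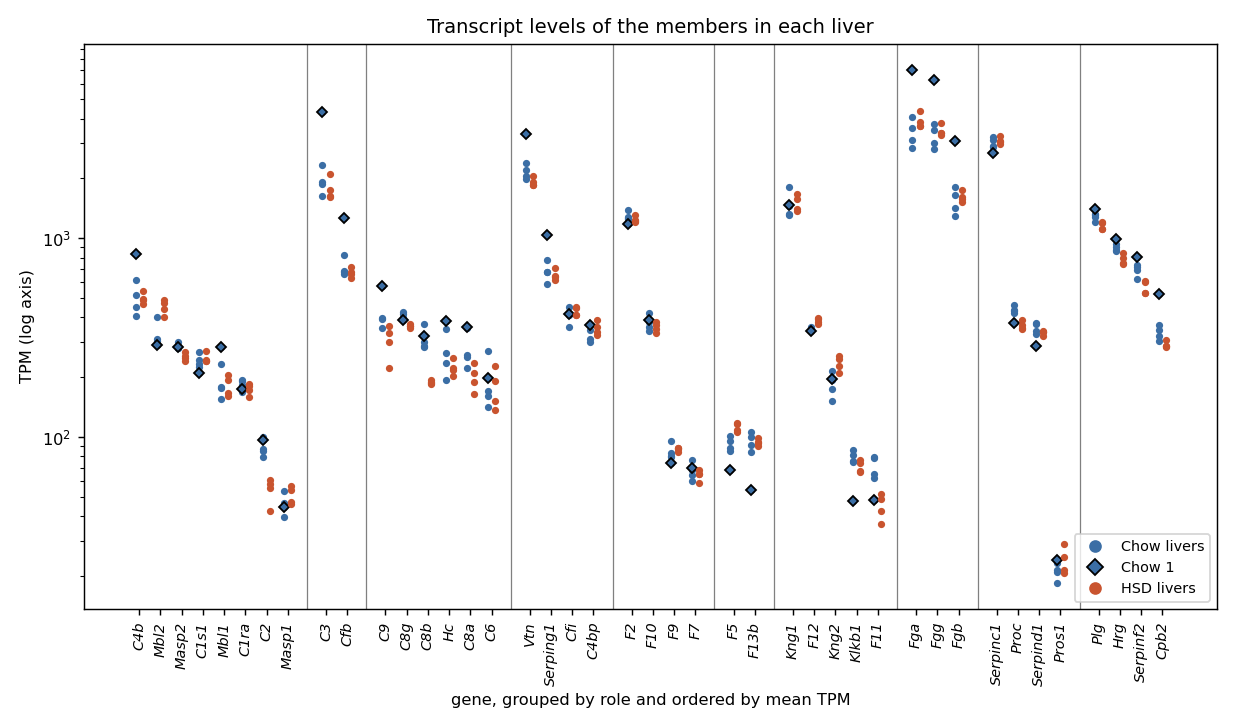
Transcript level (TPM, log axis) of the genes in each liver, grouped by role in the order of the text's role groups and sorted by mean TPM within a group. Blue points are Chow livers, the outlined blue diamond is Chow 1 and red points are HSD livers. Fga and Fgg stand at the top and Pros1 at the bottom, and the HSD points of C2 and C8b lie clear of the Chow points.

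The terminal complement genes gave 4 of the 9 calls. C8 is built of 3 chains, alpha (C8a), beta (C8b) and gamma (C8g), C9 polymerises into the pore, Hc encodes C5 and C6 encodes the next component. Of these 6 genes, 4 were lower on HSD, with all livers and without Chow 1, and all 6 had log2 fold changes below 0. To show the regulatory DNA of the genes that were lower together, the 250 bases before the RefSeq start are printed 5′ to 3′ on the gene's own strand (RefSeq, GRCm38.p6). Capitals mark matches, on either strand, to letters that liver transcription factors are known to prefer. The letters searched were CAAAGTNCA for HNF4, TTGCNNAA for C/EBP and TTCNNNGAA for STAT. For the FOXA factors they were TGTTTAC. The core promoter box was searched as TATAAA. The intervals are chr4:104876399-104876648 on the minus strand for C8a, chr4:104766067-104766316 on the plus strand for C8b, chr2:25501720-25501969 on the minus strand for C8g and chr15:6445096-6445345 on the plus strand for C9.
C8a: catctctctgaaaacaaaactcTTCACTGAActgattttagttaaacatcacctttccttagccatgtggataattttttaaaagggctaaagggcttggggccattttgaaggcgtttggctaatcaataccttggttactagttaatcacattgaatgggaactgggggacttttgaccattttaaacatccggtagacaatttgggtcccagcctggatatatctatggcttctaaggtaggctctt
C8b: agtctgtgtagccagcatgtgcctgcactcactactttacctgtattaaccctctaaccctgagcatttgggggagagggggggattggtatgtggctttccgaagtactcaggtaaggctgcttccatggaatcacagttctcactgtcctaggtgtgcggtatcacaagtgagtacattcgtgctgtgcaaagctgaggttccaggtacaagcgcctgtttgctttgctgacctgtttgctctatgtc
C8g: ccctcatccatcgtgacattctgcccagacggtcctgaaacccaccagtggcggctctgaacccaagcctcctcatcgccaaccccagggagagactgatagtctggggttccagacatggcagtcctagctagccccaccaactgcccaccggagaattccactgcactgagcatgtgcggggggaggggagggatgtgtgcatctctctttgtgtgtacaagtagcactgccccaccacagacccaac
C9: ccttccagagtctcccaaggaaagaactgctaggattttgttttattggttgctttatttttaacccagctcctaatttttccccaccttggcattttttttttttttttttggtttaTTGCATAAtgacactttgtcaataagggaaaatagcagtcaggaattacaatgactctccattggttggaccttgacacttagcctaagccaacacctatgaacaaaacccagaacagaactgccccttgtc
The C8a window held TTCACTGAA at -228 and the C9 window held TTGCATAA at -132, counted to the first base of the match from the start. The C8b and C8g windows held no match to these letters. Of the 42 genes, 33 had a promoter in the RefSeq table. The C/EBP letters were in 10 of them (30.3%) and in 9.56% of all 32851 promoters, and the STAT letters in 6 (18.2%) and 7.02%. The FOXA letters were in 2 (6.06%) and 3.17%, the HNF4 letters in 1 (3.03%) and 1.19%, and the core promoter box in 3 (9.09%) and 12.4%. Each of the 33 entered with its first listed start. The 32851 hold every listed start of all genes, so the shares are not on like units. A match is a description of letters and not a binding site.

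C8b read 644, 521, 658, 447 and 491 CPM in Chow 1 to 5, and 293, 308, 289 and 290.5 CPM in HSD 1 to 4. The 4 HSD livers lay within a narrow band far below the lowest Chow liver. The means were 552 ± 93.9 (SD, n = 5) and 295 ± 8.76 (n = 4), a log2 fold change of -0.90 (SE 0.13, adjusted p = 0.00250), or -0.85 (SE 0.11, adjusted p = 0.00168) without Chow 1 (edgeR for these and all adjusted p-values unless named otherwise). C8a read 1186, 731, 1047, 672 and 631 CPM in Chow and 599.7, 436, 533 and 486 CPM in HSD. Chow 1 and Chow 3 were the high livers, the diets did not overlap, and the lowest Chow liver was close to the highest HSD liver. Its log2 fold change was -0.73 (SE 0.19, adjusted p = 0.0425), or -0.59 (SE 0.16, adjusted p = 0.0416) without Chow 1. Chow 1 and Chow 3 also differed from the other Chow livers in 2 clock genes, with Arntl at 4.40 and 9.24 CPM against 1.35 to 1.63, and Dbp at 43.3 and 27.4 against 114 to 129. The HSD livers read 4.20 to 9.15 CPM for Arntl and 35.1 to 96.2 CPM for Dbp. Without Chow 1 and Chow 3 the diets did not overlap in either gene, so a fit without both cannot tell diet from clock gene level. With the log2 difference of Arntl and Dbp as a covariate C8a was lower by edgeR (-0.91, adjusted p = 0.00118), and with both livers left out it was lower too (-0.41, adjusted p = 0.0466). Its call was lost with the label series as a covariate (adjusted p = 0.103), with library totals (0.0510) and in TPM (limma, 0.0781 to 0.131, or 0.0694 with median-centred values).

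C9 followed C8a across the livers. It read 1009.7, 604, 902, 552 and 537 CPM in Chow and 479.6, 309, 399 and 449.7 CPM in HSD, again high in Chow 1 and Chow 3 and with no overlap. Its log2 fold change was -0.82 (SE 0.21, adjusted p = 0.0382), -0.67 (SE 0.18, adjusted p = 0.0397) without Chow 1 and -0.47 (adjusted p = 0.0492) without Chow 1 and Chow 3, and with the clock genes as a covariate it was -1.01 (adjusted p = 0.00145). With the label series as a covariate C9 was not called (-0.76, adjusted p = 0.0934), nor in TPM (limma, adjusted p = 0.0812 to 0.141, or 0.0760 with median-centred values). C8g, the small lipocalin-like chain, read 281, 268, 273, 238 and 267 CPM in Chow and 203, 218, 206 and 221 CPM in HSD. Its livers were close together within each diet and did not overlap between them. The difference was smaller, with a log2 fold change of -0.33 (SE 0.08, adjusted p = 0.0383), or -0.31 (SE 0.08, adjusted p = 0.0331) without Chow 1. Hc (-0.45, SE 0.19, adjusted p = 0.170) and C6 (-0.26, SE 0.20, adjusted p = 0.462) did not pass the test and overlapped between the diets, with -0.30 and -0.19 without Chow 1. The calls of C8a and C9 were lost when any 1 HSD liver or Chow 3 was left out, and that of C8g when HSD 1, 2, 3 or 4 or Chow 2, 3 or 5 was, with adjusted p up to 0.121 for C8a, 0.0995 for C9 and 0.122 for C8g. C8b passed in all 9 such fits (adjusted p at most 0.0145).

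**Figure D3:**
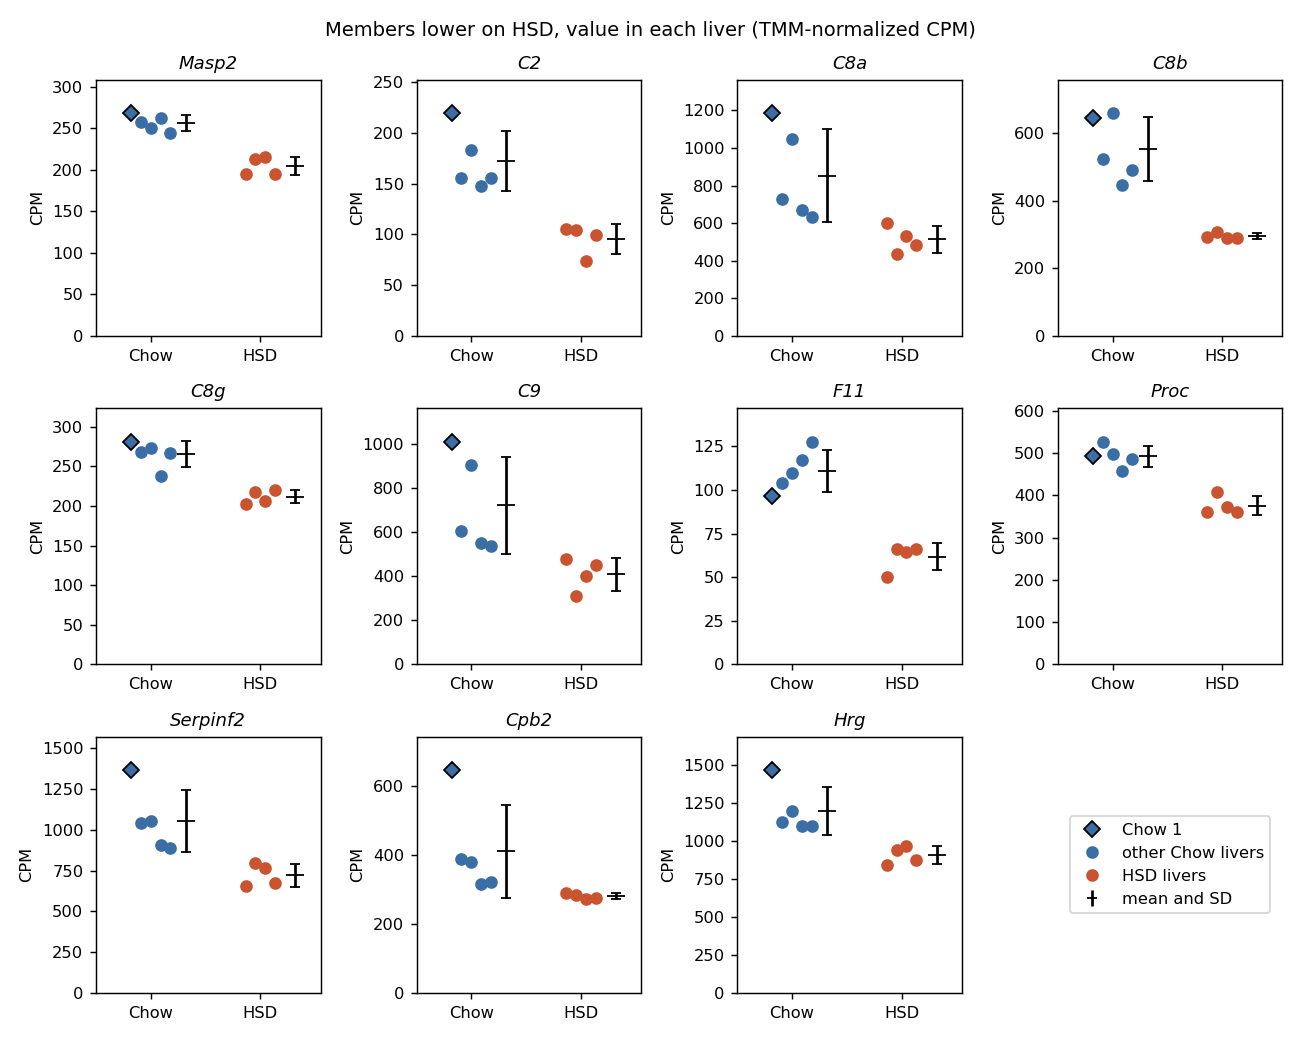
TMM-normalized CPM in each liver for the 11 genes lower on HSD with all livers or without Chow 1, with the mean and SD of each diet beside the points. The diamond is Chow 1. In all 11 panels the HSD livers lie below every Chow liver, and in Cpb2 the diamond, at 647 CPM, stands far above the other Chow livers at 316 to 389.

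Of the 8 genes of the classical and lectin pathways, C2 and Masp2 were lower on HSD. C2 is the serine protease that joins C4b in the C3 convertase. It read 219, 155, 183, 148 and 156 CPM in Chow and 105, 104, 73.3 and 99.0 CPM in HSD, so that the highest HSD liver was well under the lowest Chow liver. The means were 172 ± 29.6 and 95.3 ± 14.9, and the log2 fold change was -0.85 (SE 0.14, adjusted p = 0.00657), or -0.76 (SE 0.12, adjusted p = 0.00328) without Chow 1. It passed in all 9 fits that left out 1 liver (adjusted p at most 0.0243). Masp2, the protease that cuts C4 and C2 once lectins bind, read 268, 257, 249.6, 262 and 244 CPM in Chow and 194, 213, 216 and 195 CPM in HSD. The diets were apart by more than the spread within either, and the log2 fold change was -0.33 (SE 0.08, adjusted p = 0.0340), or -0.31 (SE 0.08, adjusted p = 0.0286) without Chow 1. The Masp2 call was lost on leaving out any liver but Chow 1, with adjusted p up to 0.121.

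Both genes share sequence with a neighbour, so part of their counts rests on how reads were divided. Of the 31-base words in the Masp2 transcripts, 53.3% also occur in transcripts of Tardbp, whose own log2 fold change was -0.25 (SE 0.09, adjusted p = 0.119). For C2, 40.2% occur in Gm20547, a readthrough gene that read 0 in 8 livers and 1.54 CPM in Chow 3. C1ra and C1s1, the proteases of C1, share 56.9% and 33.5% with C1rb and C1s2, which stayed under 1 CPM in every liver, and C4b shares 48.3% with C4a, not analysed here. Klkb1 shares 43.0% with Gm45753, not analysed here. C8a, C8b, C9, F11, Proc, Serpinf2 and Cpb2 shared no such word with another gene.

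The other 6 genes of these pathways did not pass the test. Mbl2, a mannose-binding lectin, was the member with the highest log2 fold change, 0.32 (SE 0.12, adjusted p = 0.125), while its paralogue Mbl1 had -0.33 (SE 0.21, adjusted p = 0.387) and -0.12 without Chow 1. Mbl2 passed in 2 of the 4 TPM fits (limma) and when Chow 2, its highest Chow liver at 298 CPM, was left out. C4b had -0.28, or -0.04 without Chow 1, which was 1.91-fold over the mean of the other Chow livers. C1ra had -0.23 (-0.21 without Chow 1), C1s1 -0.08 (-0.08) and Masp1 -0.05 (-0.01), and adjusted p for these 4 genes ran from 0.163 to 0.827 with all livers.

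C3, where the pathways meet, and factor B, the protease of the alternative pathway, differed mostly through Chow 1. C3 read 17823, 7549.6, 8656, 6849 and 6296 CPM in Chow and 6999, 6370.3, 5694 and 5710.2 CPM in HSD. Chow 1 was 2.43-fold over the mean of the other Chow livers, which overlapped with HSD. A log2 fold change of -0.61 (SE 0.27, adjusted p = 0.203) was -0.25 (SE 0.13, adjusted p = 0.259) without it. Cfb had -0.43 (adjusted p = 0.263), or -0.17 without Chow 1, which was at 2.0 times the mean of the other Chow livers. Neither passed edgeR or DESeq2. At an unadjusted p under 0.05 (edgeR) C3 alone was lower with all livers, and neither was without Chow 1. Of all transcript words of Cfb, 75.5% also occur in Gm20547.

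Of the 4 complement inhibitors, none passed edgeR or DESeq2 with all livers, and 1, Vtn, was lower at an unadjusted p under 0.05. Vtn, vitronectin, blocks assembly of the membrane attack complex and also stabilises the plasminogen activator inhibitor. It read 4724, 2815, 3096, 2406 and 2502 CPM in Chow and 2361, 2255, 2121 and 2172 CPM in HSD. The HSD livers lay just below the lowest Chow liver, and the log2 fold change was -0.48 (SE 0.18, adjusted p = 0.136), or -0.29 (SE 0.11, adjusted p = 0.125) without Chow 1. Vtn passed DESeq2 without Chow 1 (adjusted p = 0.0358) and edgeR with the clock covariate (0.0492). Serping1, the C1 inhibitor, had -0.40 (adjusted p = 0.225), or -0.19 without Chow 1. C4bp, the binding protein of C4b, had -0.25 (adjusted p = 0.295), or -0.15, and Cfi, the protease that degrades C3b, -0.11 (adjusted p = 0.608), or -0.06.

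In coagulation, F11 was the only clotting factor gene that passed the test. It encodes factor XI, which links the contact system to factor IX. Its promoter is shown because it stood beside a neighbour that did not pass. It lies at chr8:45262032-45262281 on the minus strand (RefSeq, GRCm38.p6), with capitals as above.
F11: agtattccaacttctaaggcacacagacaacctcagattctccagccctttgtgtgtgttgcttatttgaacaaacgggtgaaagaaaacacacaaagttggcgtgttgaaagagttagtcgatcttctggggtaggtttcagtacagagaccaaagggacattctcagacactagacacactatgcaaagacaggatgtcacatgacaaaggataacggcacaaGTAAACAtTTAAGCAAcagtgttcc
The capitals are GTAAACA, the reverse complement of the FOXA letters, at -25, and TTAAGCAA, that of the C/EBP letters, at -17. The window of the neighbour, Klkb1, held 1 match each to the FOXA, C/EBP and core promoter box letters. F11 read 96.4, 104, 110.0, 117.2 and 127.7 CPM in Chow and 50.2, 66.3, 64.4 and 66.5 CPM in HSD. Chow 1 was its lowest Chow liver, and all HSD livers were far below it. The means were 111 ± 12.1 and 61.8 ± 7.83, with a log2 fold change of -0.84 (SE 0.11, adjusted p = 0.00199), or -0.90 (SE 0.11, adjusted p = 0.000751) without Chow 1. It passed in all 9 fits that left out 1 liver (adjusted p at most 0.00928), and did not pass in TPM, where the log2(TPM + 1) difference was -0.55 (limma, adjusted p = 0.0612), or -0.71 (adjusted p = 0.0155) after each liver was centred on its median.

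The 4 other genes of the contact system were not called by edgeR, with or without Chow 1. Klkb1, plasma prekallikrein, had -0.19 (SE 0.12, adjusted p = 0.391), or -0.29 (SE 0.09, adjusted p = 0.0647) without Chow 1, in which it was lowest, and passed DESeq2 without that liver. F12, factor XII, had -0.03 (0.00 without Chow 1), and the kininogen genes Kng1 and Kng2 had -0.13 (-0.09) and 0.18 (0.24), with adjusted p of 0.402 to 0.881 for these 3. Kng1 and Kng2 share 26.5% and 30.6% of their transcript words. The vitamin K-dependent factors F2 (prothrombin), F7, F9 and F10 had -0.20, -0.25, -0.09 and -0.25, or -0.18, -0.20, -0.09 and -0.20 without Chow 1, none past edgeR or DESeq2, and F7 and F10 were, with all livers, lower at an unadjusted p under 0.05. F10 had the value farthest from 0. It read 572, 538, 453, 444 and 450.2 CPM in Chow and 404, 447, 373 and 425 CPM in HSD, and HSD 2 lay above Chow 4, so the diets overlapped (SE 0.11, adjusted p = 0.185, or -0.20 and 0.228 without Chow 1).

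F5, the cofactor of factor Xa, had a log2 fold change above 0. It read 489, 531, 613, 579 and 541 CPM in Chow and 653, 612, 600.0 and 659.8 CPM in HSD, with Chow 3 inside the HSD range. F5 was not called, with a log2 fold change of 0.20 (SE 0.10, adjusted p = 0.237), or 0.15 (SE 0.08, adjusted p = 0.301) without Chow 1. F13b, which carries factor XIII in plasma, had -0.05, or -0.16 without Chow 1, and neither gene passed at an unadjusted p under 0.05 or with DESeq2. The fibrinogen chains turned on Chow 1 altogether. Fgb, the beta chain, read 10986, 5118, 5732, 4004 and 3935 CPM in Chow and 4796, 4619, 4328 and 4285 CPM in HSD, so that the HSD livers fell inside the range of the other 4 Chow livers. Its log2 fold change was -0.40 (SE 0.27, adjusted p = 0.396), -0.07 (SE 0.13, adjusted p = 0.823) without Chow 1 and 0.04 without Chow 1 and Chow 3. Fga and Fgg had -0.30 and -0.36 with all livers, and 0.05 and -0.05 without Chow 1. None of the 3 passed at an unadjusted p under 0.05 or with DESeq2.

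Among the 4 anticoagulant genes, Proc was lower on HSD. It encodes protein C, which once activated cuts factors Va and VIIIa. It read 493, 527, 499, 458 and 486 CPM in Chow and 362, 409, 373 and 361 CPM in HSD. Chow 1 was in the middle of its group and no HSD liver reached the lowest Chow liver. The log2 fold change was -0.39 (SE 0.09, adjusted p = 0.0245), or -0.40 (SE 0.08, adjusted p = 0.0167) without Chow 1, and the call was lost on leaving out HSD 1, 3 or 4 (adjusted p up to 0.0911). Pros1, the cofactor of protein C, had -0.04 (0.04 without Chow 1), Serpinc1 (antithrombin) -0.04 (-0.06) and Serpind1 (heparin cofactor II) -0.18 (-0.20), with adjusted p of 0.233 to 0.886.

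All 4 fibrinolysis genes lay lower in every HSD liver than in every Chow liver in CPM, where 5.51% of all genes did. In TPM this held for Serpinf2 and Hrg, where 1.60% of all genes did, while Plg and Cpb2 overlapped. Of the 4, 1 passed the test with all livers and 3 without Chow 1. Serpinf2, alpha 2-antiplasmin, is the main plasmin inhibitor of blood. It read 1366, 1044, 1052, 909.9 and 889 CPM in Chow and 653, 796, 767 and 671 CPM in HSD. Chow 1 was the highest liver, and the gap between the diets was also present without it. The log2 fold change was -0.54 (SE 0.14, adjusted p = 0.0366), or -0.44 (SE 0.10, adjusted p = 0.0254) without Chow 1, and the call was lost on leaving out any HSD liver, Chow 2 or Chow 3 (adjusted p up to 0.119).

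Cpb2 encodes the carboxypeptidase that trims fibrin and slows its breakdown. It read 647, 389, 381, 316 and 321 CPM in Chow and 291, 283, 272 and 274 CPM in HSD. Chow 1 was 1.84-fold over the mean of the other Chow livers, and the HSD livers lay close together (SD 8.73 CPM) below the lowest Chow liver. Cpb2 had a log2 fold change of -0.55 (SE 0.19, adjusted p = 0.102), or -0.33 (SE 0.09, adjusted p = 0.0467) without Chow 1. Hrg, histidine-rich glycoprotein, binds plasminogen and heparin. It read 1467, 1125, 1200.1, 1100.1 and 1096 CPM in Chow and 841, 942, 969 and 875 CPM in HSD, again with Chow 1 highest and no overlap. For Hrg the log2 fold change was -0.40 (SE 0.11, adjusted p = 0.0565), or -0.32 (SE 0.09, adjusted p = 0.0444) without Chow 1. Cpb2 and Hrg passed in 4 and 5 of 28 alternatives. Neither was called without Chow 1 and Chow 3 (adjusted p = 0.0715 and 0.0605), nor in TPM (limma on log2(TPM + 1), 0.182 and 0.145). Plg, plasminogen itself, had -0.34 (SE 0.12, adjusted p = 0.103), or -0.27 (SE 0.10, adjusted p = 0.107) without Chow 1, and passed DESeq2 (adjusted p = 0.0161), as did Cpb2 (0.0311) and Hrg (0.00355).

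**Figure D4:**
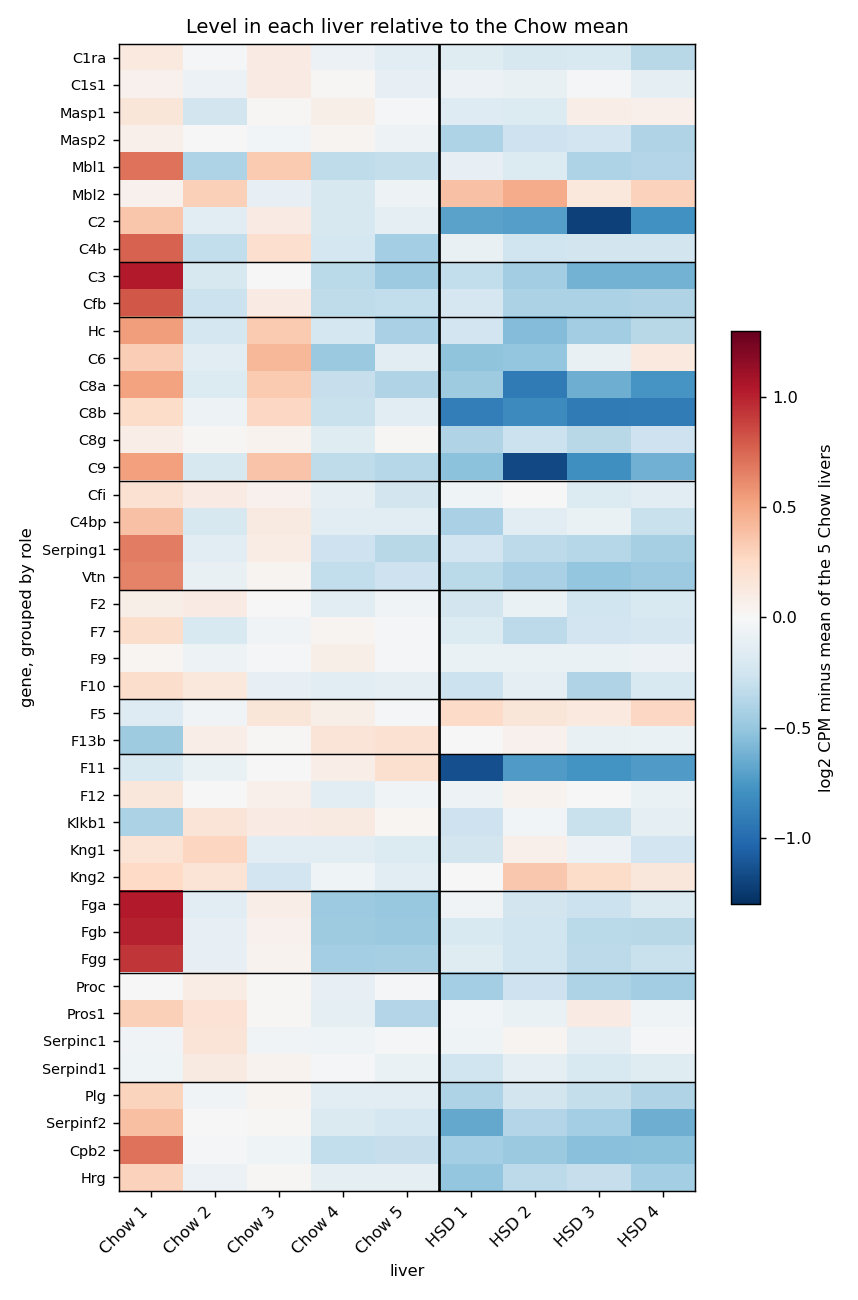
Level of each gene in each liver relative to the Chow mean (difference in log2 CPM), in role order (rows) and by liver (columns), red above and blue below that mean. The Chow 1 column is red for C3, the fibrinogen chains and most other rows and blue for F13b, Klkb1 and F11, while the rows of C2, C8b and F11 are blue across all 4 HSD livers.

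Chow 1 was the highest of the 9 livers for 27 of the 42 genes and the lowest for 3, and was at least 1.5-fold over the mean of the other Chow livers for 13. Its folds were largest for C3 (2.43), Fga (2.40), Fgb (2.34), Fgg (2.22) and Cfb (2.0), and smallest for F13b (0.670), Klkb1 (0.698) and F11 (0.840). Of the 9 genes lower with all livers, C8a and C9 were over 1.5-fold in Chow 1 (1.54 and 1.56), and Masp2, C8g and Proc were at 1.06, 1.07 and 1.0. The part of the acute phase signal of this library in these values was not tested.

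Neighbouring genes were compared next. Among the 42, 9 pairs lay within 50000 bases of each other on GRCm38. C8b (chr4:104766317-104804548) and C8a (chr4:104815679-104876398), 11130 bases apart on opposite strands, were both lower. F11 (chr8:45241174-45262031) and Klkb1 (chr8:45266689-45294859) lie 4657 bases apart on the minus strand and had -0.84 and -0.19. C2 (chr17:34862604-34898265) and Cfb (chr17:34856374-34862518) lie 85 bases apart on the minus strand and had -0.85 and -0.43, or -0.76 and -0.17 without Chow 1. F7 and F10, 1498 bases apart on chromosome 8, had -0.25 each, and Hrg and Kng2, 24197 bases apart on chromosome 16, had -0.40 and 0.18.

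Ratios between partner genes, chosen after the values of the genes were seen, compared their levels within a liver, where the scaling of the library drops out. Of 14 TPM ratios, 4 did not overlap between the diets, and 7 without Chow 1. The share of other gene pairs that do not overlap was not computed. Adjustment over the 14 ratios does not cover how they were chosen. C8b to C8g was 0.835, 0.729, 0.930, 0.71 and 0.676 in Chow and 0.538, 0.533, 0.521 and 0.499 in HSD. The HSD livers all lay below the Chow livers, with a mean ratio of 0.776 ± 0.105 (SD, n = 5) in Chow and 0.523 ± 0.0173 (n = 4) in HSD (two-sided exact permutation test, p = 0.0159, adjusted p = 0.0556 over 14 ratios). F11 to F12 was 0.191 ± 0.0366 and 0.117 ± 0.0177, Kng2 to Kng1 0.127 ± 0.00824 and 0.157 ± 0.00666, and Serpinf2 to Plg 0.547 ± 0.0231 and 0.491 ± 0.0169 (exact permutation p = 0.0159 and adjusted p = 0.0556 for each). The smallest p that 5 against 4 livers allow is 0.0159 (0.0286 without Chow 1), and 0 of 14 ratios passed after adjustment, with or without Chow 1. F11 to Klkb1 was 0.919 ± 0.116 in Chow and 0.632 ± 0.110 in HSD and overlapped (exact permutation p = 0.0317, adjusted p = 0.0635). C8a to C8g overlapped between the diets (0.721 ± 0.178 and 0.553 ± 0.0922, exact permutation p = 0.127, adjusted p = 0.148), as did Fga to Fgg (1.06 ± 0.0502 and 1.12 ± 0.0307, p = 0.0952, adjusted p = 0.121, exact permutation test).

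**Figure D5:**
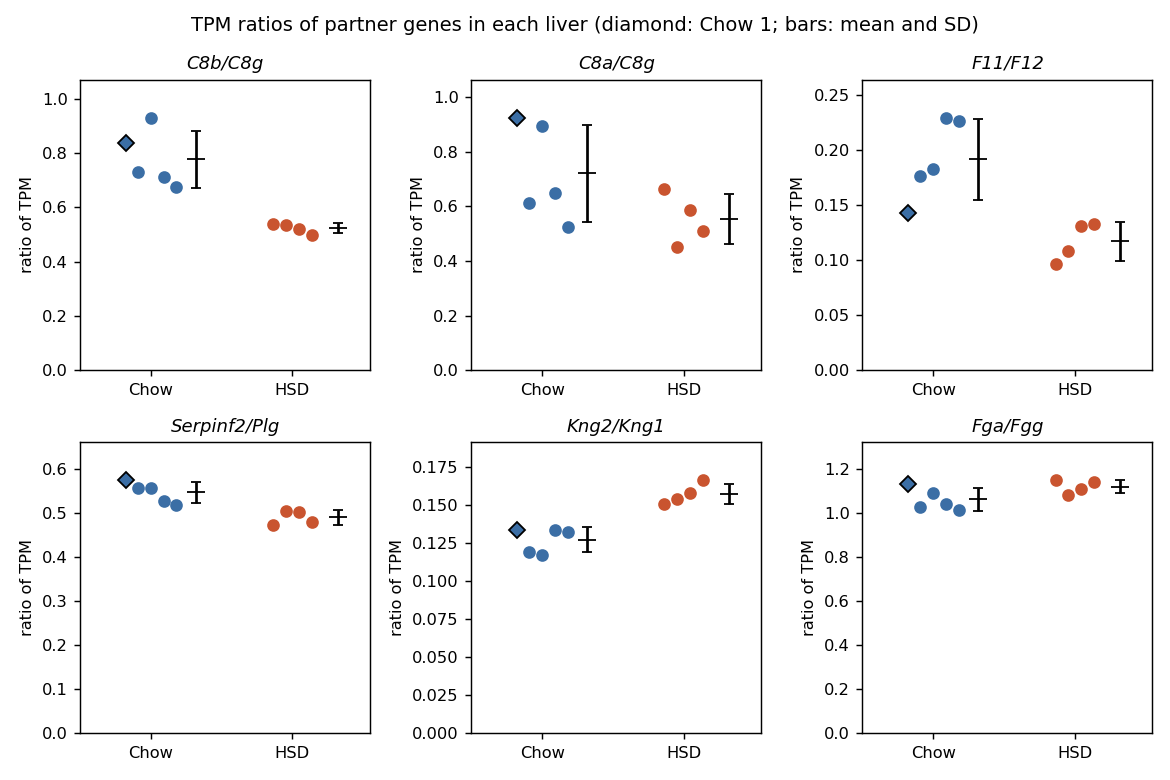
Ratio of TPM between partner genes in each liver, for 6 of the 14 pairs, with axes from 0. Blue points are Chow livers, the outlined diamond is Chow 1, red points are HSD livers and the bars give the mean and SD. The ratios of C8b to C8g, F11 to F12 and Serpinf2 to Plg are lower in every HSD liver, that of Kng2 to Kng1 is higher in every HSD liver, and those of C8a to C8g and Fga to Fgg overlap.

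Few other genes of the same pathways were called by edgeR with all livers. Of 72 listed, 53 were tested, and 2 were lower and 0 higher, a share of 3.77% beside 3.23% of all genes. At an unadjusted p under 0.05 (edgeR) the 25 wider complement genes gave 8 lower and 0 higher. The 22 coagulation and fibrinolysis genes gave 8 and 2, and the 6 genes of the vitamin K cycle and factor secretion 1 and 0. Of all genes, 11.6% were lower and 12.1% higher at that p. Without Chow 1 the 3 lists gave 4 and 0, 8 and 2, and 0 and 0, beside 12.0% and 11.8% of all genes. DESeq2 called 7 of the 53 lower and 0 higher, beside 5.83% and 5.46% of all genes. The 2 were Fcna, a ficolin that starts the lectin pathway (-0.44, SE 0.12, adjusted p = 0.0495, and 0.0680 without Chow 1), and Tfpi2, a Kunitz-type protease inhibitor (-0.35, SE 0.07, adjusted p = 0.0142). Without Chow 1, 4 were lower, among them Tfpi2, the protein Z-dependent inhibitor Serpina10 and the macroglobulin Mug2, and 1 was higher, Gas6. Those were 7.55% and 1.89% of the wider genes, beside 4.11% and 3.96% of all genes. Gas6, a vitamin K-dependent ligand of the TAM receptor kinases, read 27.2, 28.6, 21.7 and 22.8 CPM in Chow 2 to 5 and 54.2, 42.9, 56.7 and 52.3 CPM in HSD (1.03, SE 0.12, adjusted p = 0.000543). In Chow 1 it read 100.4 CPM, and with all livers it was not called (0.36, adjusted p = 0.628).

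With all livers the C1q chains, made by macrophages, had -0.48 (C1qa), -0.57 (C1qb) and -0.49 (C1qc), with adjusted p of 0.207 to 0.271 (edgeR). Of the 8 Kupffer cell and macrophage markers, 0 passed. At an unadjusted p under 0.05 (edgeR), 4 were lower with all livers and 1 without Chow 1, beside 11.6% and 12.0% of all genes. The part of these markers in the C1q values was not tested. Of 9 hepatocyte transcription factors, Foxa3 was lower (-0.70, SE 0.12, adjusted p = 0.00761, and -0.78 without Chow 1), and Hnf4a and Cebpa, which bind many liver promoters, had 0.22 and -0.08 with adjusted p of 0.270 and 0.760. Of 12 interleukin 6 and interleukin 1 signalling genes, edgeR and DESeq2 called 0. At an unadjusted p under 0.05 (edgeR) 1 was lower with all livers and 0 without Chow 1. Of the 25 acute phase genes outside the 42, Saa4 (-1.88, SE 0.50, adjusted p = 0.0434) and Itih3 (-1.06, SE 0.28, adjusted p = 0.0441) were lower, with log2 fold changes of -1.09 and -0.68 without Chow 1. The 2 are 8% of the list, beside 3.23% of all genes. At an unadjusted p under 0.05, 17 of the 25 were lower and 0 higher, where 11.6% and 12.1% of all genes were, and DESeq2 called 2 lower and 0 higher, with no adjusted p for 11 of them. Without Chow 1, 4 of the 25 (16%) were lower, beside 4.11% of all genes, and Serpina3m was the 1 higher gene, and at an unadjusted p under 0.05, 9 were lower and 2 higher, beside 12.0% and 11.8% of all genes.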

How the data were processed

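Liver RNA of 5 Chow and 4 HSD mice was analysed. Diets came from the labels, and columns of other samples numbered 0. The authors prepared poly-A libraries, sequenced paired reads and ran kallisto (version not stated in the sources used) on GRCm38. The deposited tables hold unscaled estimated counts for each symbol and TPM values, which the authors scaled by library and transcript length. No source used here says how transcripts were summed to symbols. Kallisto divides a read that matches several transcripts among them, so genes with shared sequence can exchange counts. Of the values above 0, 34.1% were whole (within 1e-06), and 99.1% of those were even, so the counts were also tested halved.

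Rounded estimated counts passed filterByExpr (minimum count 10, minimum total 15). They were tested over all genes with edgeR 4.0.16 after TMM scaling (quasi-likelihood, diet as the single factor, 7 residual degrees of freedom, biological coefficient of variation 0.187) in R 4.3.3. An adjusted p (Benjamini-Hochberg) under 0.05 counted as a call. CPM are TMM-normalized. Library totals ran from 12769668 to 25913869. Same-diet pairs of livers (16) differed by 15.2 to 262 times counting noise (chi-square per degree of freedom), so no library repeated the counts of another of its diet. Pairs across the diets were not compared. DESeq2 1.42.0 and limma 3.58.1 (voom, and log2(TPM + 1) where the mean TPM reached 1) served as alternatives. Partner ratios were tested by exact permutation in SciPy 1.17.1. Transcript words of 31 bases came from GENCODE transcripts of GRCm38, and promoters from RefSeq. Scripts were tested on simulated counts.

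The 42 genes and the other gene lists were chosen with earlier results of these data known. Genes called with all livers or without Chow 1, and the gene of each role group with the log2 fold change farthest from 0, were given in full, and of other lists at most 4 called genes were named, plus Saa2, Hp and Lcn2 to describe Chow 1. Genes named beyond this (neighbours, partners, C1q, Gas6, clock genes and transcription factors) were chosen after their values were seen, as were the partner ratios, the clock covariate, leaving out Chow 1 with Chow 3, and the median-centred TPM. Some genes of the wider lists are counted but not reported by name here.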

Additional observations from a re-analysis of the deposited data

Results flagged for a closer look

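In 8 of the 84 groups examined (42 genes in 2 diets, 9.52%), 1 liver lay far from the rest of its diet by Dixon's criterion on log2 CPM, where chance sets apart about 1 in 20 groups. Against the mean of Chow 2 to 5, Chow 1 was apart for Cpb2 (0.885 higher on the log2 scale), F13b (-0.576) and Klkb1 (-0.518), and Chow 2 was apart from the mean of Chow 1, 3, 4 and 5 for Serpinc1 (0.212). HSD 1 was apart from the other HSD livers for F11 (-0.389), Cfb (0.184) and C4b (0.143), and HSD 3 for C2 (-0.485). For F11 and C2 the liver set apart was the lowest HSD liver, and both genes passed the test when it was left out. For Klkb1 leaving out Chow 1 gave a log2 fold change of -0.29 (edgeR, adjusted p = 0.0647), and for Cpb2 one of -0.33 (adjusted p = 0.0467).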

How the results depend on the processing

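The 42 genes gave 9 lower with RLE scaling, halved counts, TMM computed without acute phase, red blood cell and member genes, and without Chow 1 and Chow 3. They gave 12 with DESeq2, 10 with voom, 7 with no filter, 6 with library totals (where 30.9% of all calls were lower, against 48.5%), 6 with median-centred TPM and 13 with the clock covariate. They gave 2 in each of the 3 TPM fits (17.3% to 18.4% of all calls lower), 3 with the label series as covariate, 0 within the first label series (4 Chow and 2 HSD), 14 with DESeq2 and 4 with the label series when Chow 1 was left out, and 3 (C2, C8b and F11) at an adjusted p under 0.01. The second label series holds 1 Chow liver, so no value within it was computed. Fits without 1 of the livers gave 3 to 11 lower and 0 to 1 higher. Mbl2 was the 1 higher gene without Chow 2 and in 2 TPM fits (pseudocounts 1 and 0.1). C2 and C8b passed in 27 of 28 alternatives and F11 in 24. The median over the members was -0.0873 (log2(TPM + 1), both filters) and -0.0875 (log2(TPM + 0.1)) in TPM and -0.13 with library totals without Chow 1, and -0.35 to -0.19 when 1 liver was left out. Fgb turned to 0.0430 without Chow 1 and Chow 3. The cause of these changes, the fewer livers in some fits among them, was not tested.

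With the replicate number as a block, replicates 1 to 4 gave 5 lower members and 0 lower wider genes. Same-numbered livers correlated at -0.0609 to 0.0661. Chow 2 and 4 matched best to HSD 2 and 4, and Chow 1 and 3 to HSD 3 and 1. These values do not show whether the numbers pair animals.

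The wider genes, 2 lower and 0 higher, gave 7 lower with DESeq2, 1 with voom, 0 with library totals, in all TPM fits, within the first label series and at an adjusted p under 0.01, 5 with the clock covariate, and 4 without Chow 1 and Chow 3. Without Chow 1 they gave 8 with DESeq2, 5 with the label series and 4 with library totals. Leaving out 1 liver gave 0 to 4 lower and 0 to 1 higher. Of the wider genes, 1 was higher with the clock covariate and in each fit that paired leaving out Chow 1 with another setting, and 2 without Chow 1 and Chow 3.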
